A study of Homo sapiens with 9 samples.

Results

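TWIST1 held above its control level was compared with control shRNA in WM793TR cells, a vertical growth phase human melanoma line with mutant BRAF. The comparison used 6 of the 9 arrays of the study. The first group, shTWIST1 + TWIST1, had 3 arrays of cells carrying the TWIST1 shRNA together with a CMV-regulated TWIST1 cDNA, labelled as TWIST1 overexpression. The second, shControl, had 3 arrays of cells carrying a control shRNA, labelled as TWIST1 basal. A further 3 arrays, shTWIST1, came from cells with the TWIST1 shRNA alone, which entered the fit for the estimate of the spread and are given as values beside the others. Every culture received 100 ng/mL doxycycline for 96 h, so both groups share the drug and an induced shRNA. The groups differ in the shRNA sequence as well as in the cDNA, so levels with the TWIST1 shRNA alone are given for some genes. A gene named without that level need not have been near shControl with the shRNA alone. The sources used here name neither an empty vector control nor separate clones or passages, so the p-values measure only the spread between these arrays.

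TWIST1 is a basic helix-loop-helix transcription factor that pairs with the E-proteins TCF3, TCF4 and TCF12 and binds the E-box, CANNTG. In the embryo it acts in mesoderm and in the cranial neural crest, the migratory cells from which melanocytes and Schwann cells also descend. In carcinoma cells it is known as a driver of epithelial-mesenchymal transition (EMT), the switch from a sheet of joined cells to single motile ones. The ID proteins bind E-proteins but not DNA and so compete with partners such as TWIST1.

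The TWIST1 level checked the labels first. It was 6.77, 7.10 and 7.15 on the shControl arrays and 8.75, 8.90 and 8.27 on the shTWIST1 + TWIST1 arrays, in log2 units of the robust multi-array average (RMA) used throughout. All 3 arrays with the cDNA lay above all 3 control arrays. The difference was 1.63 ± 0.16 (SE), or 3.10-fold, with a limma adjusted p of 0.00199. With the shRNA alone TWIST1 was 6.23 ± 0.05 (SD, n = 3). Which part of the TWIST1 transcript the probes read is not given in the sources used here, so endogenous and introduced RNA are not separated. Of the partner genes none passed the test. TCF12 was 8.56 ± 0.06 in shControl and 8.87 ± 0.02 in shTWIST1 + TWIST1 (adjusted p = 0.0977), and TCF3 and TCF4 differed by 0.02 and 0.09.

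The 9 arrays had medians of 4.73 to 4.79 and values from 1.60 to 12.4. Whole arrays correlated at 0.992 to 0.994 within shControl, 0.985 to 0.992 within shTWIST1 + TWIST1 and 0.976 to 0.986 between these groups. The first principal component held 39.1% of the variance, with the shTWIST1 + TWIST1 arrays at 26.8 to 35.3 and the other 6 at -21.3 to -7.16. On the second component, with 19.4%, replicate 2 was the lowest array of each group. Of the melanocyte markers, the lineage factor SOX10 stood at 8.88 ± 0.15 in shControl and MITF, the master regulator of pigment genes, at 5.47 ± 0.09. The pigment genes PMEL, MLANA, TYR and TYRP1 were at 2.48 to 2.66 in shControl, where the median gene stood at 4.74, so the label of a melanocyte-derived line rests on SOX10 and MITF here. Neither SOX10 (8.38 ± 0.28 with the cDNA, adjusted p = 0.182) nor MITF (5.18 ± 0.20, adjusted p = 0.259) passed the test, although all arrays with the cDNA lay below all control arrays for both. The summed linear level of the 6 melanocyte markers was 506 to 594 in shControl, 408 to 506 in shTWIST1 and 335 to 457 in shTWIST1 + TWIST1. SOX10 makes up most of this sum. The median log2 difference of the 6 markers was 0.002, with 3 of them above 0.

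Among 19903 genes, with the Y chromosome left out, 516 were called, meaning a limma p below 0.05 after Benjamini-Hochberg adjustment. This is 2.59% of the genes tested. There were 208 genes higher with TWIST1 (1.05%) and 308 lower (1.55%). The genes called lower were already well expressed, with a median shControl level of 7.64. Those called higher had a median of 5.0 in shControl, close to the 4.74 of all genes. The lower genes also moved farther, with a median log2 difference of -1.01 and 157 genes past 1, against 0.83 and 80 genes for the higher. In each called gene the 3 arrays of one group lay wholly above the 3 of the other, as they did in 18.5% of all genes. Each fit was repeated 9 times, leaving out 1 array at a time, and 200 of the 516 calls were made every time. Those calls are named below as held in all 9 fits, and for others the fits that lost or kept the call are given. A fit with 1 array fewer also has less power, so a lost call need not rest on the array left out. Leaving out a shTWIST1 array does not alter the difference itself. With only the 6 arrays compared in the fit, 254 genes were called.

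**Figure D1:**
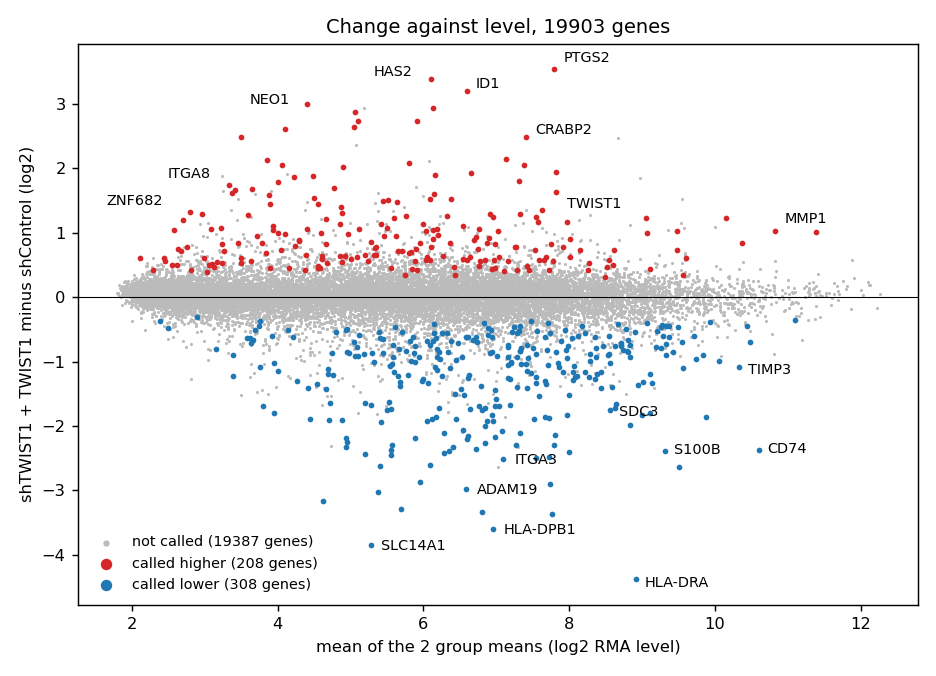
Difference between shTWIST1 + TWIST1 and shControl (vertical axis, log2) against the mean of both group means (horizontal axis, log2 RMA level) for 19903 genes. Genes called higher are red (208), genes called lower blue (308) and the rest grey, and the blue points reach farther from 0, down to -4.38 for HLA-DRA, than the red, which end at 3.53 for PTGS2.

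The largest fall belonged to antigen presentation on MHC class II, by which a cell shows peptides to helper T cells. Melanoma cells, unlike most cells outside the immune system, often express these genes. Of 20 measured class II genes 8 were called lower and none higher, or 40% against 2.59% over all genes. Their median difference was -0.40, against 0.02 over all genes. HLA-DRA, the alpha chain of the DR receptor, stood at 11.29, 11.14 and 10.87 in shControl and at 7.52, 6.43 and 6.21 in shTWIST1 + TWIST1. Every array with the cDNA lay far below every control array. HLA-DRA fell by 4.38 ± 0.32 on the log2 scale, a level 20.8-fold lower, with an adjusted p of 0.000496. HLA-DPB1, a chain of the DP receptor, was 9.29, 8.82 and 8.12 without the cDNA and 5.56, 5.16 and 4.73 with it, and fell by 3.59 ± 0.37. Its partner HLA-DPA1 fell by 1.85 ± 0.21, from 10.80 ± 0.21 to 8.94 ± 0.32. HLA-DMA and HLA-DMB form the DM molecule that loads peptides. HLA-DMA was 9.92, 9.38 and 9.06 in shControl against 6.55, 6.2 and 5.50, and HLA-DMB fell by 2.09 ± 0.24. CD74, the invariant chain that escorts class II molecules through the cell, was among the brightest genes on the arrays at 11.87, 11.81 and 11.67, and lay at 9.69, 9.31 and 9.24 with the cDNA. It fell by 2.37 ± 0.13 (adjusted p = 0.000154). CIITA, the transcriptional master switch of class II genes, was 5.67, 4.99 and 5.22 in shControl and 4.07, 4.11 and 4.10 with the cDNA, and fell by 1.20 ± 0.18 (adjusted p = 0.0122). These 7 calls held in all 9 fits. HLA-DQB1 fell from 5.12 ± 0.48 to 3.71 ± 0.03 (adjusted p = 0.0353), and its call was made in only 3 of the 9 fits, those without shTWIST1 replicate 1, shControl replicate 3 or shTWIST1 replicate 3, with an adjusted p of up to 0.104 elsewhere. With the shRNA alone the mean levels were 11.03 for HLA-DRA, 8.42 for HLA-DPB1, 8.99 for HLA-DMA, 11.77 for CD74 and 5.29 for CIITA. All 5 were far nearer to shControl than to the group with the cDNA.

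The promoters of several of these genes share a known layout, an X box read by the RFX complex and a Y box, ATTGG or its reverse CCAAT, read by NF-Y, on which CIITA assembles. The sequences below are shown because these genes fell together. HLA-DRA and CIITA had no entry in the promoter source, so their promoters were not examined. Each is the 150 bases before the annotated start, 5′ to 3′ on the gene's strand, from RefSeq on GRCh38.p14, and capitals mark a match to a pattern for the X box (CCNAG, then NNANN, then NNTGA, where N is any base) or to ATTGG on either strand. The windows lie at chr6:33075840-33075989 (+) for HLA-DPB1, chr6:32953098-32953247 (-) for HLA-DMA, chr6:32941029-32941178 (-) for HLA-DMB and chr5:150412911-150413060 (-) for CD74.
HLA-DPB1: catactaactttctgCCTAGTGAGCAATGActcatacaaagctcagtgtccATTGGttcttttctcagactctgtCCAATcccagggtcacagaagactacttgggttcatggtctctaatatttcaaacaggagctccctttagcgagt
HLA-DMA: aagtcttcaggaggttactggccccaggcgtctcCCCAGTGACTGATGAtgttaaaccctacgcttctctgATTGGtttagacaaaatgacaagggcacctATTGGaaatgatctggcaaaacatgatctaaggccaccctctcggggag
HLA-DMB: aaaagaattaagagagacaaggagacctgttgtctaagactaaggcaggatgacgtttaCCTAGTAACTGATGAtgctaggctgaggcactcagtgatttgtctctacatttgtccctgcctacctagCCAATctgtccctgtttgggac
CD74: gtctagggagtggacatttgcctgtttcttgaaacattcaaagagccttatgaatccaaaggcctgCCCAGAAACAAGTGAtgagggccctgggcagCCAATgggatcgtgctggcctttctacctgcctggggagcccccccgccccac

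In each window the X box pattern came first, and the nearest ATTGG or CCAAT followed it without overlap. Counted from the start, the X box pattern began at -135 in HLA-DPB1, -116 in HLA-DMA, -91 in HLA-DMB and -84 in CD74. The nearest ATTGG or CCAAT after it began at -99, -79, -22 and -53, in the same order. In HLA-DMB it thus lay much farther from the X box pattern than in the others, and whether it is a Y box was not tested. Over windows of 250 bases before to 50 after the start, both strands, the X box pattern was found in 0.975% of the 14667 tested genes with an entry, ATTGG in 36.2% and both in 0.416%. Both were found in 6 of 243 genes called lower and in none of 160 called higher. Among the 6 were the genes shown above and HLA-DQB1. The pattern was written down after the promoters of the class II genes had been seen, so this split was largely set in advance and the counts are a description. HLA-DPA1, which fell, held neither. The class II HLA genes without a call that had an entry, among them HLA-DRB1, HLA-DRB5, HLA-DQA1 and HLA-DOA, did not hold the X box pattern. Whether a match bears on the falls was not tested.

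Several class II genes gave no call. HLA-DRB1 was at 3.11 ± 0.09 in shControl and 2.65 ± 0.14 with the cDNA (adjusted p = 0.0528), and HLA-DQA1, HLA-DQA2, HLA-DRB5 and HLA-DOB had means of 2.66 to 2.95 in shControl, near the foot of the scale. DRB genes are near copies of each other and vary between people, and probes can miss or share them. HLA-DRB6, annotated as a DRB pseudogene, read 11.18, 10.86 and 10.43 in shControl and 8.17, 8.0 and 8.39 with the cDNA (difference -2.63 ± 0.19), and which DRB transcript it read is uncertain. The X box factor genes RFX5, RFXANK and RFXAP differed by -0.12, 0.02 and 0.25 and were not called.

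MHC class I shows peptides to killer T cells. Of 20 measured genes 3 were called lower and none higher, or 15% against 2.59% over all genes. Their median was -0.33. HLA-B was 9.69, 9.98 and 9.43 in shControl and 8.29, 8.75 and 8.50 with the cDNA, a fall of 1.19 ± 0.16 that held in all 9 fits, though HLA class I genes are near copies that probes may not separate. PSMB9, a subunit of the immunoproteasome, fell by 1.05 ± 0.18 (adjusted p = 0.0214) and lost its call without shTWIST1 + TWIST1 replicate 1 or shControl replicate 2, with an adjusted p of up to 0.0734. HLA-F fell by 0.69 ± 0.13, and its call was made in 1 of the 9 fits, the one without shControl replicate 3. HLA-C (7.11 to 6.51, adjusted p = 0.0505) lay just outside the threshold, and B2M, the light chain of class I, differed by -0.50 ± 0.17 (adjusted p = 0.215). Interferon raises both classes of MHC genes. Of 55 measured interferon response genes 1 was called, or 1.82%, near the 2.59% of all genes. In 12 of the 55 the arrays with the cDNA lay wholly below the control arrays, and in 4 wholly above. Over all genes 8.16% and 10.3% did so. The called gene was HERC5, a ligase that attaches the ubiquitin-like ISG15, which rose from 2.56 ± 0.06 to 4.18 ± 0.48. IRF1, an interferon-induced factor, differed by -0.73 ± 0.29 and was not called, although its groups did not overlap. A part of interferon in the MHC falls was not tested. Among 27 immune checkpoint genes and ligands of natural killer cells none was called by limma. That set is too small to tell this from the 2.59% over all genes.

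**Figure D2:**
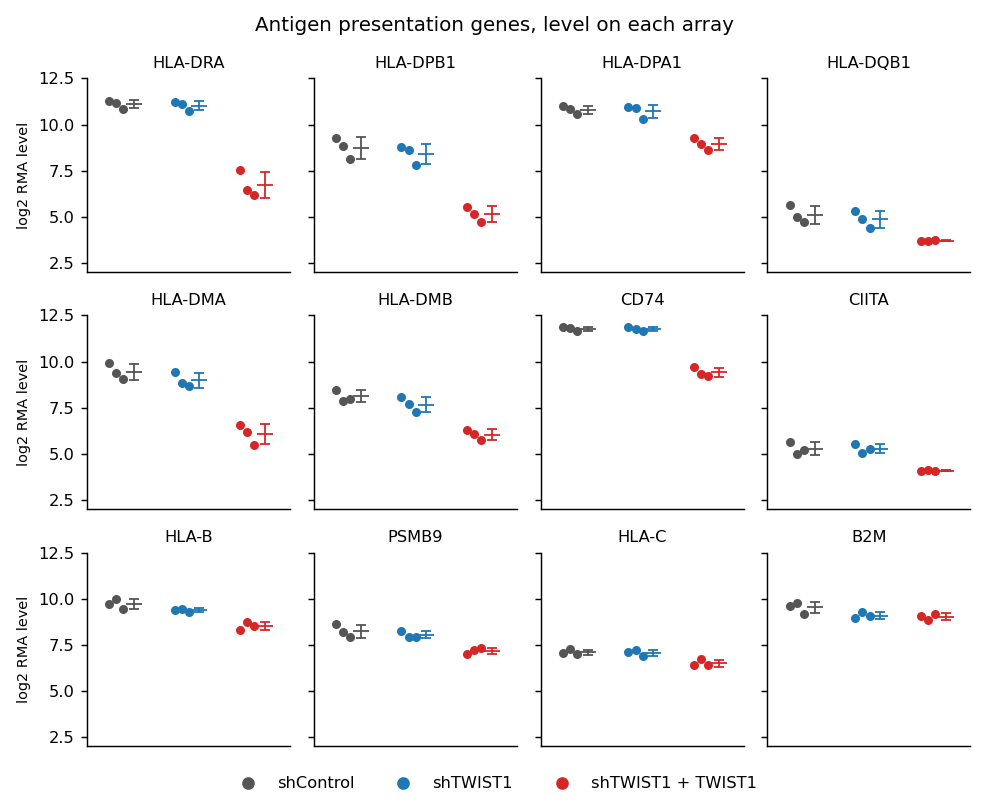
Level on each array (points, log2 RMA) of 8 class II genes and 4 class I genes in shControl, shTWIST1 and shTWIST1 + TWIST1, with the group mean and SD beside the points (n = 3). For HLA-DRA the shTWIST1 + TWIST1 arrays sit at 6.21 to 7.52 and the shControl arrays at 10.87 to 11.29, while for B2M the groups meet.

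ID1, ID3 and some genes of the bone morphogenetic protein (BMP) pathway were called higher. BMP ligands bind receptors that phosphorylate SMAD1, SMAD5 and SMAD9, and ID1 and ID3 are their best known targets. Of 38 measured members 6 were called higher, 2 were called lower and 30 were not called. The share called was 21.1%, against 2.59% over all genes. ID1 was 4.89, 5.03 and 5.06 in shControl and 8.48, 7.62 and 8.47 with the cDNA. All arrays with the cDNA lay above all control arrays, and ID1 rose by 3.19 ± 0.29, or 9.14-fold (adjusted p = 0.00141). ID3 was 3.32, 4.08 and 3.46 in shControl and 6.89, 5.29 and 7.32 with the cDNA. It rose by 2.88 ± 0.48 (adjusted p = 0.0201), with the wider spread in the group carrying the cDNA, and its call was lost without replicate 1 or 3 of either group, with an adjusted p of up to 0.0863. ID2 (4.17 ± 0.38 to 5.03 ± 0.50) and ID4 (5.44 ± 0.43 to 4.84 ± 0.12) were not called.

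The ligand BMP7 was 5.15, 5.79 and 5.90 in shControl and 7.24, 6.95 and 7.23 with the cDNA, and rose by 1.53 ± 0.19. The signal transducer SMAD1 rose by 0.66 ± 0.08, from 4.99 ± 0.11 to 5.65 ± 0.08. With the shRNA alone BMP7 was 6.19 ± 0.09 and SMAD1 5.40 ± 0.08, between both groups. NEO1 encodes neogenin, a receptor of netrins and repulsive guidance molecules that also works as a BMP co-receptor. It was 2.86, 2.85 and 3.01 in shControl and 5.77, 5.92 and 6.03 with the cDNA, a rise of 3.0 ± 0.09 with an adjusted p of 9.14e-06. The 3 control arrays were near the foot of the scale and the 3 with the cDNA were not. BAMBI, a pseudoreceptor that blocks BMP and TGF-beta signals, was 9.19, 9.21 and 9.43 in shControl and 7.93, 8.01 and 7.72 with the cDNA, and fell by 1.39 ± 0.13. The calls for ID1, NEO1, BMP7, SMAD1 and BAMBI held in all 9 fits. FST, a secreted antagonist of activins and BMPs, fell by 1.92 ± 0.36 (adjusted p = 0.0336), a call made only without shControl replicate 1 or shTWIST1 replicate 2 among the 9 fits, with an adjusted p of up to 0.12. In the TGF-beta list 1 of 26 genes was called, or 3.85%, near the 2.59% over all genes. PMEPA1, a TGF-beta target that damps the pathway, was 8.96, 9.09 and 9.55 in shControl and 5.99, 7.33 and 7.05 with the cDNA, and fell by 2.41 ± 0.35 (adjusted p = 0.0112) in all 9 fits.

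Of 40 measured glial and neural genes 12 were called lower and none higher, or 30% against 2.59% over all genes. Their median was -0.29. The lower summed level of melanocyte markers, mostly that of SOX10, moved with these genes and with the neural crest genes called lower. Its part in either was not tested. Schwann cells and melanocytes share a neural crest origin, and S100B, a calcium-binding protein of glia, is a routine melanoma marker. S100B was 10.85, 10.31 and 10.34 in shControl and 8.31, 7.80 and 8.25 with the cDNA. No array of one group reached the other, and S100B fell by 2.38 ± 0.18, a level 5.22-fold lower (adjusted p = 0.000543). ERBB3, the neuregulin receptor of the Schwann cell and melanocyte lineages, was 8.79, 8.99 and 8.85 in shControl and 6.80, 6.98 and 6.44 with the cDNA, and fell by 2.14 ± 0.17. SLITRK6, a transmembrane protein of sensory neurons, was 7.05, 6.37 and 7.27 against 3.55, 3.44 and 4.61. MAP2, a microtubule protein of dendrites, fell by 2.25 ± 0.28, from 6.07 ± 0.19 to 3.83 ± 0.52. ROPN1L, first known from sperm, fell by 3.29 ± 0.38, from 7.34 ± 0.64 to 4.04 ± 0.24, with 6.13 ± 0.63 for the shRNA alone. These 5 calls held in all 9 fits. SCRG1 fell by 2.44 ± 0.39 and lost its call without shControl replicate 2 or 3 or shTWIST1 + TWIST1 replicate 3 (adjusted p up to 0.0627). The synaptic adhesion genes NRXN3 and NLGN1 fell by 1.94 ± 0.30 and 1.64 ± 0.33. The call for NRXN3 was lost without shControl replicate 1 or 3 (adjusted p up to 0.0581), and that for NLGN1 was made only without shTWIST1 + TWIST1 replicate 1 or shTWIST1 replicate 2 or 3.

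Among 36 neural crest and dedifferentiation genes 4 were called higher and 6 lower, or 27.8% against 2.59% over all genes. The homeobox genes MSX1 and MSX2, known as BMP targets of the early neural crest, rose by 0.69 ± 0.12 and 1.78 ± 0.27. MSX2 was 3.01, 3.23 and 3.08 in shControl and 4.26, 4.86 and 5.56 with the cDNA, and its call was lost without shControl replicate 1 or 3 (adjusted p up to 0.0581). The call for MSX1 was lost without replicate 1 or 2 of either group (adjusted p up to 0.0973). TEAD2, a DNA-binding partner of YAP, rose by 1.26 ± 0.17 in all 9 fits. GFRA1 and GFRA2, co-receptors for glial cell line-derived neurotrophic factors, fell. GFRA1 was 6.05, 5.93 and 4.99 in shControl and 3.87, 3.49 and 3.88 with the cDNA (difference -1.91 ± 0.26), a call that held in all 9 fits, with an adjusted p of 0.0505 in the fit of 6 arrays. GFRA2 fell by 3.16 ± 0.60, and its call was made without shControl replicate 2, shTWIST1 replicate 2 or shTWIST1 replicate 3 only. NGFR, the neurotrophin receptor that marks neural crest stem cells, differed by -0.39 ± 0.26 and SOX9 by 0.22 ± 0.08, and neither was called. AXL, a kinase of the dedifferentiated melanoma state, was 9.60 ± 0.37 in shControl and 9.63 ± 0.50 with the cDNA.

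Among receptor tyrosine kinases 3 of 46 were called higher, and ERBB3 alone lower, or 8.7% called against 2.59% over all genes. PDGFRB and PDGFRA are the receptors of platelet-derived growth factor, which mesenchymal cells use. PDGFRB was 4.69, 4.84 and 5.17 in shControl and 6.69, 6.36 and 6.07 with the cDNA. PDGFRA was 6.62, 7.16 and 7.2 against 8.34, 7.95 and 8.20. All arrays with the cDNA lay above all control arrays for both genes, with rises of 1.48 ± 0.18 and 1.17 ± 0.16 that held in all 9 fits. In the fit of 6 arrays the adjusted p of PDGFRA was 0.0542. ROR1, a Wnt5a receptor, rose by 0.62 ± 0.11 and lost its call without shControl replicate 1 or 3 (adjusted p up to 0.0928). IL17RD, also known as SEF, which damps signalling from fibroblast growth factor receptors to ERK, was 3.80, 3.63 and 3.79 in shControl and 7.21, 6.40 and 5.80 with the cDNA. It rose by 2.73 ± 0.31 in all 9 fits, with more spread in the group with the cDNA. DUSP6, the phosphatase that switches off ERK, differed less, by 0.49 ± 0.10 (adjusted p = 0.0439), and was called in 1 of the 9 fits, the one without shControl replicate 3.

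HAS2 and PTGS2, enzymes of hyaluronan and prostaglandin synthesis, were called higher. HAS2 makes hyaluronan, a long sugar chain of loose matrix. HAS2 was 3.78, 4.70 and 4.77 in shControl and 8.04, 7.42 and 7.93 with the cDNA, with 3.41 ± 0.23 for the shRNA alone. Here too the groups were far from overlapping, and HAS2 rose by 3.38 ± 0.28, or 10.4-fold (adjusted p = 0.000832), in all 9 fits. PTX3 and TNFAIP6 encode proteins that together cross-link hyaluronan. PTX3 was 5.40, 3.69 and 4.91 in shControl and 6.93, 7.92 and 7.97 with the cDNA, and its rise of 2.94 ± 0.47 lost its call without shTWIST1 + TWIST1 replicate 2 or 3 or shControl replicate 3 (adjusted p up to 0.0618). TNFAIP6 rose by 0.78 ± 0.13 from 6.86 ± 0.16, where the shRNA alone gave 4.56 ± 0.21. Its call was lost without replicate 3 of either group, shControl replicate 1 or shTWIST1 + TWIST1 replicate 2 (adjusted p up to 0.0855). CEMIP, which starts the breakdown of hyaluronan, was 7.49, 8.18 and 7.69 in shControl and 6.55, 5.94 and 6.11 with the cDNA, and fell by 1.59 ± 0.20 in all 9 fits, with 6.85 ± 0.11 for the shRNA alone. The other 20 of 24 hyaluronan genes were not called, so the share called was 16.7%, against 2.59% over all genes. PTGS2, or COX-2, the inducible enzyme of prostaglandin synthesis, was 5.34, 6.80 and 5.94 in shControl and 9.20, 10.52 and 8.96 with the cDNA. The lowest array with the cDNA lay above the highest control array. With the shRNA alone PTGS2 was 5.14 ± 1.14. PTGS2 rose by 3.53 ± 0.64 (adjusted p = 0.0279), but replicate 2 was the highest in each group and the call was lost without replicate 1 or 3 of either group or shTWIST1 + TWIST1 replicate 2 (adjusted p up to 0.111). No other gene of the 23 in the prostaglandin list was called, so the share was 4.35%, near the 2.59% over all genes.

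PTGS2, PTX3 and TNFAIP6 are also known as targets of NF-kappaB, the transcription factor of inflammation. None of 22 NF-kappaB subunit and feedback genes was called, a set too small to tell this from the 2.59% over all genes. Their median was 0.43, and in 9 of them the arrays with the cDNA lay wholly above the control arrays. Over all genes 10.3% did so. In a fit with the replicate number as a block, 4 of the 22 were called higher. A part of NF-kappaB in the rises of PTGS2, PTX3 and TNFAIP6 was not tested. TNF, a cytokine that activates NF-kappaB, was 3.34, 3.21 and 3.34 in shControl and 4.40, 5.85 and 5.21 with the cDNA. It rose by 1.86 ± 0.31, a call lost without any 1 of the shControl arrays or without shTWIST1 + TWIST1 replicate 3 (adjusted p up to 0.0723). CXCL1, a neutrophil chemokine, differed by 1.01 ± 0.21 (adjusted p = 0.0498) and was called in only 1 of the 9 fits, the one without shControl replicate 1. CXCL8 overlapped between the groups. The T cell growth factor IL15 fell by 1.09 ± 0.17, from 4.60, 4.12 and 4.17 to 3.01, 3.28 and 3.34, in all 9 fits.

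**Figure D3:**
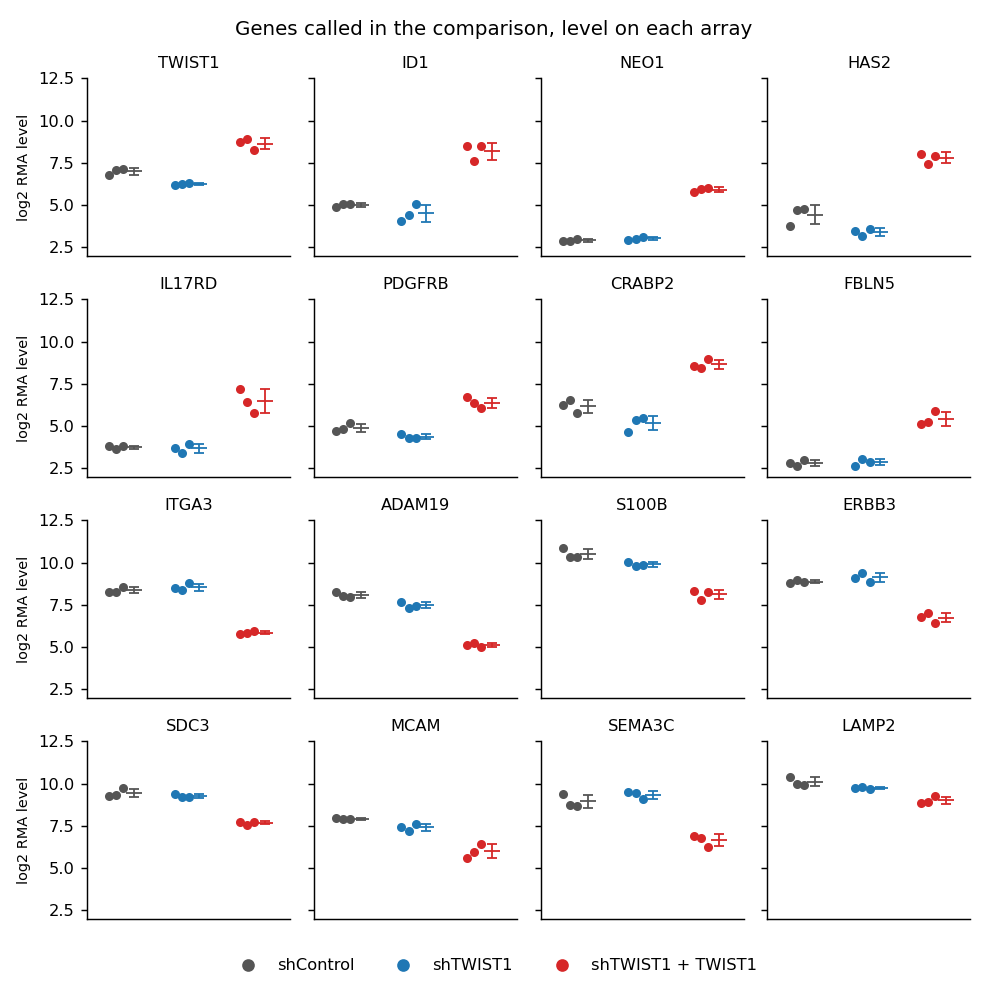
Level on each array (points, log2 RMA) of TWIST1 and 15 other called genes in shControl, shTWIST1 and shTWIST1 + TWIST1, with the group mean and SD beside the points (n = 3). The 8 genes of the upper rows are higher and the 8 of the lower rows lower in shTWIST1 + TWIST1, as for NEO1 at 5.77 to 6.03 against 2.85 to 3.01 in shControl, and ITGA3 at 5.75 to 5.93 against 8.25 to 8.55.

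Integrins, the receptors that tie cells to matrix, split. Of 43 integrin and focal adhesion genes 5 were called higher and 4 lower, or 20.9% against 2.59% over all genes. ITGA3, the alpha chain of a laminin receptor, was 8.25, 8.25 and 8.55 in shControl and 5.75, 5.84 and 5.93 with the cDNA. Its arrays were tight in each group, and it fell by 2.51 ± 0.13, a level 5.71-fold lower (adjusted p = 0.000154). ITGA6, of the other laminin receptors, fell by 0.90 ± 0.09, from 9.77 ± 0.10 to 8.88 ± 0.12. ITGB8, whose receptor frees latent TGF-beta, was 10.06, 9.64 and 9.78 against 7.72, 7.88 and 7.92, and fell by 1.99 ± 0.15. In the other direction, ITGA8 was 2.46, 2.47 and 2.45 in shControl and 4.49, 4.07 and 4.03 with the cDNA, and rose by 1.74 ± 0.13. ITGA8 is the alpha chain of a receptor for nephronectin and fibronectin. The focal adhesion adaptor TNS2 rose by 0.84 ± 0.10. These 5 calls held in all 9 fits. ITGA11, a collagen receptor chain of fibroblasts, was 5.88, 7.04 and 6.16 against 8.16, 8.69 and 8.37. It rose by 2.05 ± 0.34, and lost its call without replicate 3 of either group, shControl replicate 1 or shTWIST1 + TWIST1 replicate 2 (adjusted p up to 0.0767).

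Of 35 immunoglobulin-type adhesion genes 8 were called lower and none higher, or 22.9% against 2.59% over all genes. Only MCAM held in all 9 fits. MCAM, or CD146, a known melanoma adhesion molecule, was 7.98, 7.89 and 7.88 in shControl and 5.62, 5.93 and 6.41 with the cDNA, and fell by 1.93 ± 0.19. CADM1, the adhesion molecule the study followed up, was 9.20, 8.82 and 8.93 against 8.19, 7.75 and 8.36. Its groups did not overlap, and it fell by 0.88 ± 0.17 (adjusted p = 0.0393), with a call made in 1 of the 9 fits, the one without shTWIST1 + TWIST1 replicate 3, and an adjusted p of up to 0.144 in the rest. With the shRNA alone CADM1 was 9.06 ± 0.19, near the shControl mean of 8.98 (limma adjusted p = 0.966). The paper reports higher CADM1 RNA and protein after TWIST1 siRNA, another means of lowering TWIST1. NCAM1, the neural adhesion molecule, fell by 1.01 ± 0.18 and was called in 3 of the 9 fits, those without shTWIST1 replicate 2 or 3 or shTWIST1 + TWIST1 replicate 3. Of 54 cadherin and junction genes 3 were called higher and 2 lower, or 9.26% against 2.59% over all genes. The desmosomal cadherin DSG2, a protein of epithelial and heart junctions, was 5.18, 5.28 and 5.52 in shControl and 6.56, 6.90 and 7.09 with the cDNA, and rose by 1.53 ± 0.18 in all 9 fits. CDH2, N-cadherin, a mesenchymal marker, moved down, by 0.41 ± 0.08 (adjusted p = 0.0376), a call made in 2 of the 9 fits, those without shTWIST1 replicate 2 or shTWIST1 + TWIST1 replicate 2. CDH1, E-cadherin, was at 2.45 ± 0.05 in shControl and 2.49 ± 0.08 with the cDNA. Among 17 EMT transcription factors SNAI1 rose by 0.99 ± 0.14 (8.47, 8.54 and 8.71 to 9.81, 9.46 and 9.41) in all 9 fits. PRRX1, a mesenchymal homeobox factor, rose by 1.23 ± 0.22 and was called in 3 of the 9 fits, those without shControl replicate 1 or 3 or shTWIST1 replicate 2. TWIST2 differed by 0.19 ± 0.11.

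The matrix was described by 3 lists. Of 75 glycoproteins and proteoglycans 7 were called lower and 1 higher, or 10.7% against 2.59% over all genes. Their median was near 0 (-0.01). The syndecans SDC2 and SDC3 are cell surface heparan sulfate proteoglycans. SDC3 was 9.25, 9.34 and 9.73 in shControl and 7.75, 7.57 and 7.72 with the cDNA, and fell by 1.76 ± 0.13. SDC2 fell by 1.28 ± 0.12, from 8.99 ± 0.10 to 7.71 ± 0.20. ABI3BP, a matrix protein, was 9.65, 9.06 and 8.87 against 6.25, 6.31 and 6.31, and fell by 2.90 ± 0.19. With the shRNA alone ABI3BP was 9.92 ± 0.19. ACAN, aggrecan, the hyaluronan-binding proteoglycan of cartilage and perineuronal nets, fell by 2.38 ± 0.34, from 7.53 ± 0.19 to 5.15 ± 0.72. SPP1, osteopontin, was 5.04, 4.68 and 4.85 in shControl and 3.10, 3.17 and 2.90 with the cDNA, and 8.58 ± 0.47 with the shRNA alone. These 5 calls held in all 9 fits. COLEC12, a scavenger receptor with a collagen-like stalk, rose by 2.64 ± 0.25 (3.54, 4.04 and 3.58 to 5.75, 6.52 and 6.80), also in all 9. Of 42 collagens, COL12A1, a fibril-associated collagen, fell by 1.51 ± 0.20 in all 9 fits, though the fit of 6 arrays gave an adjusted p of 0.0504. COL1A1 read 4.48 ± 0.04 in shControl and 4.51 with the cDNA. In the elastic fibre list FBLN5, which organises elastin, was 2.77, 2.63 and 2.97 in shControl and 5.11, 5.23 and 5.88 with the cDNA, and rose by 2.61 ± 0.20 in all 9 fits.

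Among metalloproteases, the plasminogen system and their inhibitors, 8 of 59 were called lower and 2 higher, or 16.9% against 2.59% over all genes. ADAM19, a membrane sheddase, was 8.26, 8.01 and 7.96 in shControl and 5.10, 5.21 and 5.0 with the cDNA. The arrays of each group lay close together, and ADAM19 fell by 2.97 ± 0.12, a level 7.85-fold lower (adjusted p = 3.61e-05). MMP15, a membrane-bound matrix metalloprotease, was 6.84, 6.26 and 7.04 against 4.09, 4.03 and 4.18, and fell by 2.62 ± 0.19. ADAM12, a relative of ADAM19, fell by 1.83 ± 0.18. The inhibitor TIMP3, which binds to matrix and also blocks ADAM enzymes, was 10.88 ± 0.07 in shControl and 9.79 ± 0.21 with the cDNA, and fell by 1.09 ± 0.12. The secreted collagenase MMP1 moved up, from 10.51, 10.16 and 10.27 to 11.29, 11.41 and 11.32, by 1.03 ± 0.13. These 5 calls held in all 9 fits. TIMP1 and TIMP2 fell by 0.70 ± 0.11 and 0.69 ± 0.12 and were called in 6 and 5 of the 9. The call for TIMP1 was lost without shControl replicate 2 or 3 or shTWIST1 + TWIST1 replicate 3, and that for TIMP2 without replicate 2 or 3 of either group, both with an adjusted p of up to 0.0709.

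Semaphorins, which steer axons and migrating neural crest cells, made up the calls for axon guidance on the lower side. SEMA3C was 9.40, 8.76 and 8.67 in shControl and 6.88, 6.80 and 6.25 with the cDNA, and fell by 2.30 ± 0.24. SEMA3B fell by 1.43 ± 0.20 and SEMA5A by 0.93 ± 0.14. These 3 held in all 9 fits, with all arrays of the group with the cDNA below all control arrays. SEMA3A and SEMA6D fell by 0.93 ± 0.18 and 1.27 ± 0.25 but were called in only 2 of the 9 fits. SEMA3A was called without shTWIST1 replicate 2 or 3, and SEMA6D without shControl replicate 1 or shTWIST1 + TWIST1 replicate 2. ROBO2, a receptor for the repellent SLIT, rose by 1.44 ± 0.24, from 3.31, 3.02 and 3.20 to 5.21, 4.42 and 4.24, and lost its call without any 1 of the shControl arrays (adjusted p up to 0.0708). The other 47 of 54 axon guidance genes were not called.

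**Figure D4:**
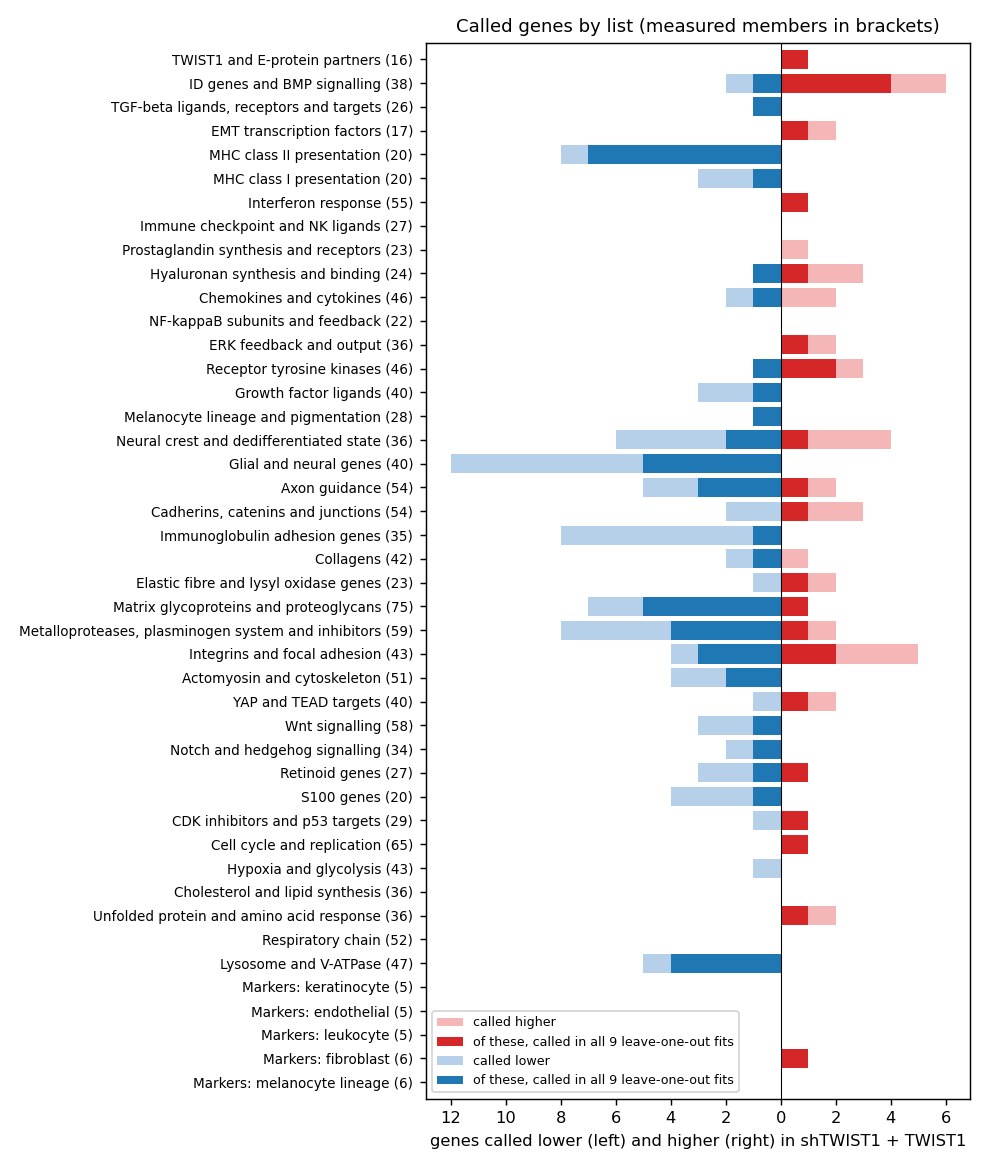
Number of genes called lower (left, blue) and higher (right, red) in shTWIST1 + TWIST1 for each list, with the measured members in brackets and the calls made in all 9 leave-one-out fits in the darker shade. The glial and neural list has 12 genes called lower and MHC class II 8, of which 5 and 7 were called each time, and the ID and BMP list has the most genes called higher, 6, of which 4 were.

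Several smaller sets had a few calls each. CRABP2, which carries retinoic acid to its nuclear receptor, was 6.22, 6.52 and 5.76 in shControl and 8.55, 8.42 and 8.96 with the cDNA, and rose by 2.48 ± 0.26 in all 9 fits. With the shRNA alone CRABP2 was 5.17 ± 0.44. ALDH1A3, an enzyme that makes retinoic acid, was 10.51, 10.70 and 10.44 against 9.45, 9.75 and 9.46, and fell by 0.99 ± 0.10, also in all 9. RXRG, a retinoid X receptor, fell by 2.33 ± 0.38 and lost its call without replicate 3 of either group, shTWIST1 + TWIST1 replicate 1 or shControl replicate 2 (adjusted p up to 0.0736). The actin regulators CALD1, caldesmon, and DST, dystonin, fell by 1.33 ± 0.17 and 1.26 ± 0.12. DST was 8.0, 7.72 and 7.72 in shControl and 6.55, 6.60 and 6.50 with the cDNA. PTCH1, the hedgehog receptor and itself a target of the pathway, fell by 1.15 ± 0.16, from 8.79 ± 0.20 to 7.63 ± 0.28. SFRP1, a secreted Wnt antagonist, fell by 0.52 ± 0.06. The calls for CALD1, DST, PTCH1 and SFRP1 held in all 9 fits.

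Of 47 lysosome genes 5 were called lower and none higher, or 10.6% against 2.59% over all genes. The protease CTSD, cathepsin D, was 9.05, 8.88 and 8.73 in shControl and 7.82, 7.75 and 7.38 with the cDNA, and fell by 1.23 ± 0.14. LAMP2, a membrane protein of the lysosome, was 10.41, 9.96 and 9.94 against 8.84, 8.93 and 9.26, and fell by 1.09 ± 0.15. The proton pump genes ATP6V0B and ATP6V1B2 fell by 0.76 ± 0.12 and 0.74 ± 0.08. These 4 calls held in all 9 fits, but the fit of 6 arrays gave an adjusted p of 0.0528 for LAMP2 and 0.0639 for ATP6V0B. Moreover, with the shRNA alone ATP6V0B was 8.05 ± 0.04, below both other groups. In 15 of the 47 genes the arrays with the cDNA lay wholly below the control arrays, where 8.16% of all genes did. SLC7A5 and SLC3A2, the light and heavy chains of the large amino acid transporter LAT1, rose together. SLC3A2 was 9.35, 9.26 and 9.28 in shControl and 9.84, 10.08 and 9.80 with the cDNA, a rise of 0.61 ± 0.09 that held in all 9 fits, with 9.71 ± 0.03 for the shRNA alone. SLC7A5 rose by 0.83 ± 0.13 and lost its call without shControl replicate 1 (adjusted p = 0.0507), and was 10.3 ± 0.17 with the shRNA alone against 9.95 in shControl.

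Other sets had 1 call or none. Limma called none of 52 respiratory chain genes, none of 36 genes of cholesterol and lipid synthesis and 1 of 65 cell cycle and replication genes. Over all genes 2.59% were called, so sets of this size cannot show a lack of calls. The called cell cycle gene, CDCA7L, a relative of the MYC target CDCA7, was 4.58, 4.48 and 4.58 in shControl and 7.59, 6.51 and 7.72 with the cDNA. It rose by 2.73 ± 0.28 in all 9 fits, and was 3.62 ± 0.21 with the shRNA alone. The cell cycle brakes CDKN1A, CDKN2A and CDKN2B differed by -0.33 ± 0.37, 0.07 ± 0.15 and -0.04 ± 0.19. XPC, a DNA damage sensor and p53 target, rose by 1.25 ± 0.17 in all 9 fits, with an adjusted p of 0.0528 in the fit of 6 arrays.

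The fibroblast markers were checked as those of another cell type. In 5 of 6 (DCN, LUM, PDGFRA, FAP and DPT) all arrays with the cDNA lay above all control arrays, where 10.3% of all genes did. COL1A1 overlapped, and only PDGFRA was called. DPT barely separated, with a lowest array of 2.94 with the cDNA and a highest control array of 2.93. LUM, a small proteoglycan of connective tissue, was 5.57, 5.40 and 4.17 in shControl and 7.85, 6.28 and 6.15 with the cDNA (adjusted p = 0.181). DCN was 2.74, 3.08 and 2.82 against 6.68, 3.50 and 3.26, so that replicate 1 alone stood far up. The summed linear level of the 6 markers was 233 to 356 in shControl, 169 to 273 in shTWIST1 and 528 to 834 in shTWIST1 + TWIST1. In shControl this sum is mostly PDGFRA and FAP. The summed level moved with PDGFRB, ITGA11 and HAS2, and its part in those results was not tested. In bulk RNA, more cells of a type and more RNA per cell cannot be told apart. None of 5 keratinocyte, 5 endothelial or 5 leukocyte markers was called, and PTPRC, which all leukocytes carry, was at 2.08 ± 0.03 in shControl and 2.13 ± 0.11 with the cDNA.

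The zinc finger genes stood apart from the rest of chromosome 19. Of 515 genes with ZNF symbols 18 were called higher and 2 lower, or 3.88% against 2.59% over all genes. On chromosome 19, where KRAB zinc finger repressor genes sit in clusters, 17 of 250 were called higher and 2 lower, against 1 and 0 of 265 on other chromosomes and 2 and 9 of 1113 other genes of chromosome 19. ZNF682 was 2.20, 2.0 and 2.18 in shControl and 3.15, 3.52 and 3.68 with the cDNA, a rise of 1.32 ± 0.14. ZNF90 rose by 1.30 ± 0.19, from 2.31 ± 0.23 to 3.60 ± 0.33. ZNF85 rose by 0.99 ± 0.08 and ZNF43 by 1.05 ± 0.12. ZNF667-AS1, an RNA antisense to ZNF667, was 2.03, 2.48 and 2.23 against 4.65, 4.21 and 5.34, and its neighbour ZNF667 rose by 1.06 ± 0.17, a call lost without shControl replicate 2 or 3 or shTWIST1 + TWIST1 replicate 3 (adjusted p up to 0.0646). Whether the probes keep the strands apart is not given in the sources used here. The falls of ZNF415 and ZNF528 were called in 1 and 4 of the 9 leave-one-out fits, with an adjusted p of up to 0.144 and 0.0883, and with the shRNA alone they were at 2.18 ± 0.10 and 3.49 ± 0.12, as low as with the cDNA. With the shRNA alone the means were 2.03 for ZNF682, 2.36 for ZNF90, 3.55 for ZNF85 and 2.23 for ZNF667-AS1, near shControl. Of the 18 genes called higher, 15 had a shControl mean under 3, near the foot of the scale, and near-identical members of these clusters can share probes. The count was 7 in the fit of 6 arrays, 5 when dim genes were left out, 11 without shTWIST1 replicate 1, 9 without shControl replicate 1 and 8 without either of the other shControl arrays.

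**Figure D5:**
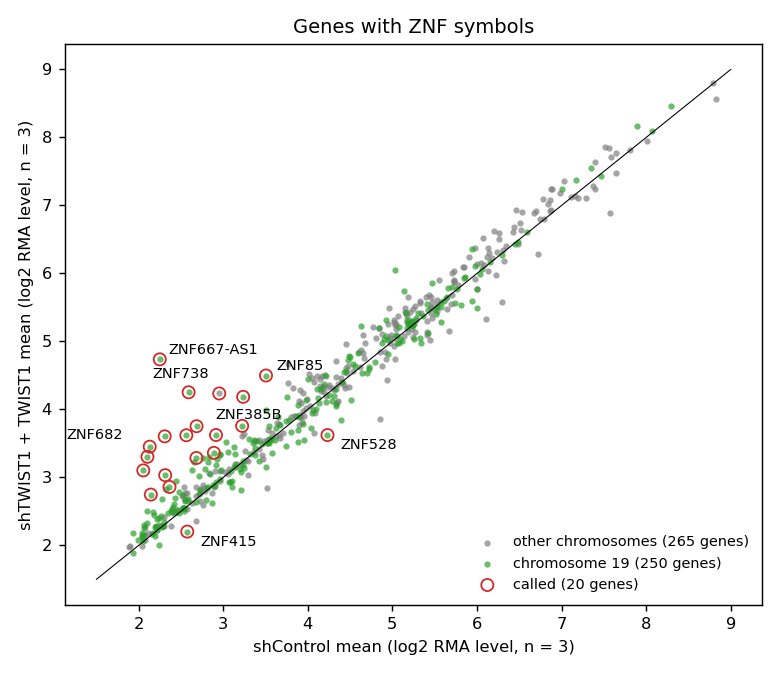
Mean level in shTWIST1 + TWIST1 (vertical axis) against shControl (horizontal axis), both log2 RMA with n = 3, for 515 genes with ZNF symbols, green on chromosome 19 and grey elsewhere, with called genes ringed and the line of equal levels drawn. Most of the ringed genes lie above the line at shControl means of 2.05 to 3.51, and ZNF415 and ZNF528 lie below it.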

How the data were processed

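Total RNA was amplified with the NuGen Ovation Pico system, labelled with biotin and hybridized to 1 array per sample. The authors deposited log2 expression values made with RMA (background correction, quantile normalization between arrays, 1 value per probe set). Its version, the array and the chip definition are not given in the sources used here, and the number of arrays limits the precision. Of 20673 probe sets, 19935 had 1 gene symbol and 738 had none and were left out. The brighter probe set was kept per gene, which gave 19934 genes. The 31 genes of the Y chromosome stayed in the fit and are not counted or named.

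The 3 groups were fitted together with limma 3.58.1 in R 4.3.3, with no block, the default empirical Bayes prior and Benjamini-Hochberg adjustment at 0.05 over all genes. The script was tested on simulated data. No set test was run. The 39 gene lists, 5 marker lists and 15 symbol families are described by counts and medians, and these lists and members were chosen with earlier results of these data known. The text draws on TWIST1, CADM1, the 30 largest non-overlapping calls per direction, up to 5 called genes per direction of each list and family with each list's key members, and up to 5 genes per direction nearest the threshold. Named outside that rule, after their values were seen, were HLA-DPA1, HLA-DQB1, the class II genes without a call, RFX5, RFXANK, RFXAP, NRXN3, NLGN1, TIMP1, TIMP2, ZNF85, ZNF43 and ZNF667. Promoter windows and gene positions came from RefSeq (GRCh38.p14). Tables and plots used Python 3.11.15, pandas 2.3.3, numpy 2.4.6 and matplotlib 3.10.9.

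Alternatives were the 6 arrays alone, the replicate number as a block, quantile normalization again, median centring, leaving out dim genes below the 30th percentile, weights per array, a robust prior with a trend, probe sets averaged per gene, the methods' t-test (2-tailed, unequal variance), a minimum absolute difference of 1, leaving the Y chromosome out before the fit, and leaving out each array.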

Additional observations from a re-analysis of the deposited data

How the results depend on the processing

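Against 516 genes called (208 higher, 308 lower), 6 arrays alone gave 254 (92 and 162), a minimum absolute difference of 1 gave 237 (80 and 157), and the methods' t-test gave 3 after adjustment (1 and 2) and 1579 at an unadjusted p of 0.05. Leaving out 1 array gave 258 to 516 genes, 82 to 219 higher and 176 to 302 lower. The total moved by over 1.5 times without shControl replicate 1 (258), shControl replicate 2 (293), shControl replicate 3 (281) or shTWIST1 replicate 1 (329). Quantile normalization again, median centring, leaving out dim genes, weights per array, the robust prior with a trend, averaged probe sets and leaving out the Y chromosome gave 494 to 632, and median centring moved the median of all genes from 0.02 to 0.00. No called gene changed its direction under any of these alternatives, but most of them could not have changed it. In every called gene the groups did not overlap, so leaving out or weighting arrays cannot reverse the difference. Apart from quantile normalization again and median centring, the other alternatives left the difference itself all but untouched. For named genes, 3808 values under the alternatives kept their side of the threshold, 984 lost the call and 11 gained one. The labels number the arrays 1 to 3 in each group. Between shTWIST1 + TWIST1 and shControl, deviations from the group means correlated at 0.03, 0.22 and 0.11 for the same number and at -0.27 to 0.18 otherwise, so a pairing of these groups was not taken as shown. Same-numbered arrays deviated together between shTWIST1 and shControl (0.32, 0.51 and 0.29) and between shTWIST1 + TWIST1 and shTWIST1 (0.14, 0.30 and 0.30), where other numbers gave -0.345 to 0.0955, which is a hint from the data of a shared source by number. The replicate block gave 791 genes (304 and 487) over 9 arrays and 125 (28 and 97) over 6. The cause of these differences was not tested.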

Other observations

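Among symbol families outside the lists, solute carriers had 6 genes called higher and 10 lower of 380, or 4.21% against 2.59% of all genes. SLC14A1, a urea transporter, was 7.85, 6.75 and 6.98 in shControl and 2.73, 3.28 and 4.04 with the TWIST1 cDNA, and fell by 3.84 ± 0.37. SLC35F1 fell by 3.33 ± 0.27, from 8.47 ± 0.45 to 5.14 ± 0.37. Both calls held in all 9 leave-one-out fits. Potassium channel genes had 3 calls higher and 2 lower of 89, or 5.62% against 2.59% of all genes. KCNMA1, the large conductance calcium-activated channel, fell by 1.75 ± 0.11 (7.83, 7.54 and 7.64 to 5.76, 5.93 and 6.08), and KCNK1, a leak channel, rose by 1.59 ± 0.15, both in all 9. TNFRSF11B, osteoprotegerin, the decoy receptor that blocks bone resorption, rose from 7.01, 6.56 and 7.01 to 8.75, 8.97 and 8.65, and MACROH2A2, a histone variant of silent chromatin, from 3.70, 4.04 and 3.92 to 5.80, 5.52 and 6.42. None of 29 HOX genes, 64 ribosomal protein genes, 360 olfactory receptors, 75 histone genes or 55 clustered protocadherins was called by limma, against 2.59% of all genes. All but the olfactory receptors are families too small to show a lack of calls. The olfactory receptors had a median level of 2.41 in shControl, near the foot of the scale.

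Called genes lay on every chromosome tested, with a share called of 0.858% on chromosome 22 to 4.46% on chromosome 8. In RefSeq order, 51 called genes sat in 24 runs of neighbours with the same direction, none longer than 3. Among these were ZNF682 with ZNF90 on chromosome 19 (higher) and, on chromosome 6, the pairs HLA-DMA with HLA-DMB and HLA-DPA1 with HLA-DPB1 (lower). These runs were picked after their values were seen.

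The E-box CANNTG, which reads the same on both strands, was in 59.4% of 160 promoters of genes called higher, 63.8% of 243 called lower and 64.2% of all 14667 tested genes with an entry. The forms known for TWIST1 pairs were rarer. CATATG was in 0.625%, 1.23% and 1.78%, and CAGATG or its reverse CATCTG in 11.3%, 16% and 11.6%. Of other forms, CACCTG or its reverse CAGGTG was in 16.25%, 19.8% and 19.6%. CAGCTG was in 19.4%, 21.0% and 17.6%, and CACGTG in 11.25%, 7.82% and 8.84%. CADM1 had no entry, so the E-boxes that the paper examined over a longer stretch of its promoter are not covered. The windows reach from 250 bases before to 50 after the start, and their median GC content was 65.3%, 64.3% and 63.0%.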
